A study of Mus musculus with 12 samples.

Results

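The genes described here are 10 immediate early and related genes, *Egr1*, *Nab1*, *Nab2*, *Phlda1*, *Fos*, *Jun*, *Junb*, *Ier2*, *Ier3* and *Atf3*, taken by symbol from a table of 54838 genes. Their RNA was measured by sequencing in liver from 12 mice of the C57BL/6J strain, 3 in each of 4 groups. The drinking water was plain or held 25 mM ZnSO4 during 7 days. Each mouse was then injected intraperitoneally with PBS alone or with 200 µg of dexamethasone (Dex), a glucocorticoid that activates the glucocorticoid receptor, and liver was removed 2 h later. The names used are water-PBS for the control, then water-Dex, zinc-PBS and zinc-Dex, so that every group was injected. Per the study's methods, its purchased C57BL/6J mice were female and its mice were 8 to 14 weeks old.

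Immediate early genes are transcribed within minutes of a stimulus from preformed factors and need no new protein. Growth factors, cytokines and stress reach them through MAP kinases, serum response factor with its ternary complex partners, CREB and NF-κB, and in liver they are known for their rapid induction after partial hepatectomy and by handling or injury. *Egr1* encodes a zinc finger transcription factor, and *Nab1* and *Nab2* encode corepressors that bind EGR proteins, *Nab2* being itself a known EGR1 target. *Fos*, *Jun* and *Junb* encode subunits of AP-1, and *Atf3* encodes a related bZIP factor of the stress response. *Phlda1* encodes a pleckstrin homology-like domain protein, *Ier2* a nuclear protein, and *Ier3* a regulator of survival and a known NF-κB target.

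The upstream windows of 4 members are shown because they bear on the pairs whose levels are set side by side, *Nab1* with *Nab2* and *Jun* with *Junb*. Each holds 250 bases before the RefSeq start of transcription and 50 after it, from RefSeq on GRCm38.p6, and reads 5′ to 3′ on the gene's own strand, which is the minus strand for these 4. The windows lie at chr1:52500399-52500698 for *Nab1*, chr10:127666654-127666953 for *Nab2*, chr4:95052173-95052472 for *Jun* and chr8:84978699-84978998 for *Junb*. Capitals mark a match to a searched motif.
Nab1: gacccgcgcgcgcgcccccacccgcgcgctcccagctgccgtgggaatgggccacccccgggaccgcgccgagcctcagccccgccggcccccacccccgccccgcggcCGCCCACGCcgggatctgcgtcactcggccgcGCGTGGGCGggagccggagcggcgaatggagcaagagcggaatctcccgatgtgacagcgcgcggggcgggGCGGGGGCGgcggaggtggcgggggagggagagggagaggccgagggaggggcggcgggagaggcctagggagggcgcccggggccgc
Nab2: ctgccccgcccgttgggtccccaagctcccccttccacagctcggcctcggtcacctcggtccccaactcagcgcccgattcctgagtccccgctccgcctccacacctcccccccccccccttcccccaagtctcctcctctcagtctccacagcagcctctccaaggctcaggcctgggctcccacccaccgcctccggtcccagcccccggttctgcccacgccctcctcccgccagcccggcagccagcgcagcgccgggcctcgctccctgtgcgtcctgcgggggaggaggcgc
Jun: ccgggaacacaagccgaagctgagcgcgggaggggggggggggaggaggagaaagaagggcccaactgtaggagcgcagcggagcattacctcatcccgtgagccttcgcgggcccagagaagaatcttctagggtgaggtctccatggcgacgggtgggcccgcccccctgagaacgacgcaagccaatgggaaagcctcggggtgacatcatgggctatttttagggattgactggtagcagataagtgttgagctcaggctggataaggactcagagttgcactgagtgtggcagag
Junb: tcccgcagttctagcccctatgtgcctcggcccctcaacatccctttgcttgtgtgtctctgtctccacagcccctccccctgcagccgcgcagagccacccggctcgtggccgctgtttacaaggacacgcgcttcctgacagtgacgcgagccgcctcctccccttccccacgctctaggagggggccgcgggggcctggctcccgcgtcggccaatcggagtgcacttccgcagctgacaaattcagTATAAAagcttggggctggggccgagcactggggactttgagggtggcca

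The motifs were searched on both strands as the cyclic AMP response element TGACGTCA, its half-site TGACGT (which every full element contains), the AP-1 site TGANTCA, the EGR sites GCGTGGGCG and GCGGGGGCG, the CArG box of serum response factor, and the TATA box TATAAA. The half-site and the TATA box were added after the windows had been seen. The *Nab1* window held 3 EGR sites, which began 141 bases (on the opposite strand), 109 bases and 38 bases upstream of the start. The *Nab2* window held none, nor any other searched motif. The RefSeq starts of *Nab1* and *Nab2* both lie inside the gene as GENCODE M21 places it, and the *Nab2* window lies wholly inside. Bases upstream of the GENCODE start of *Nab2* were therefore not searched. The 3 EGR sites of the *Nab1* window lie downstream of the GENCODE start of *Nab1*, within the gene. Of 32851 RefSeq windows of the same length, 3.47% held an EGR site. The *Junb* window held a TATA box at the RefSeq start, and the *Jun* window had no match. For *Junb*, the start in the GENCODE M21 annotation lies downstream of the RefSeq start, so the TATA box lies upstream of it. A TATA box occurred in 13.6% of windows, the AP-1 site in 7.81%, the half-site in 7.51%, the full cyclic AMP element in 1.79% and the CArG box in 1.63%. Of the 7 members with a window, *Fos* also held a half-site 66 bases and a TATA box 33 bases upstream, and *Atf3* a half-site 8 bases upstream on the opposite strand. *Ier3* had no match. A match describes these letters only.

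Total counts per library were 9091152 to 12303527. The labelled treatments were visible in each mouse. *Mt1*, a metallothionein gene induced by zinc, was at 209 to 435 normalized counts in water-PBS and at 3427 to 6212 in zinc-PBS. It was also high with Dex alone, at 7486 to 7595 in water-Dex, and was at 12367 to 15077 in zinc-Dex. *Fkbp5*, a glucocorticoid receptor target, was at 536 to 1490 in the PBS-injected mice and at 7988 to 8673 in the Dex-injected mice. All 7 hepatocyte markers were detected. A pair of libraries stood apart, zinc-PBS replicate 1 for many early genes and water-PBS replicate 1 for a few members. In zinc-PBS replicate 1, all 10 members had their highest level of that group, whereas 33.2% of the 12604 genes that averaged 10 or more normalized counts did. Of 16 other early genes at that level, 13 were highest there as well. All 12 listed early NF-κB genes were also highest there, and their summed level was 8183 normalized counts against 822 and 1220 in zinc-PBS replicates 2 and 3. Among them, the chemokine gene *Cxcl1* was at 3021 normalized counts in that library and at 50.7 and 163 in the others of its group. The 6 neutrophil markers summed to 147 normalized counts there and to 42.0 and 82.4 in the others, with the granule gene *Mpo* under 1 in every library of the study. The 6 lymphocyte markers summed to 54.2 there and to 31.5 and 39.8 in the others. The 6 Kupffer cell and macrophage markers summed to 3951 there and to 4041 and 4090 in the others. In water-PBS replicate 1, 6 of the 10 members had their highest level of the group, and 35.7% of genes did. Of the 16 other early genes, 4 did. *Egr1* in that library was 7.93 times and *Fos* 4.08 times the mean of the other control mice. On that measure *Junb* was at 1.85, *Ier2* at 1.77, *Jun* at 1.19, *Nab1* at 1.04 and *Atf3* at 0.997. *Phlda1* was at 0.778, *Ier3* at 0.696 and *Nab2* at 0.681. The early NF-κB sum of that library was 987, against 987 and 800 in replicates 2 and 3. For the members, values without these libraries are given beside several of the calls and larger differences.

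**Figure D1:**
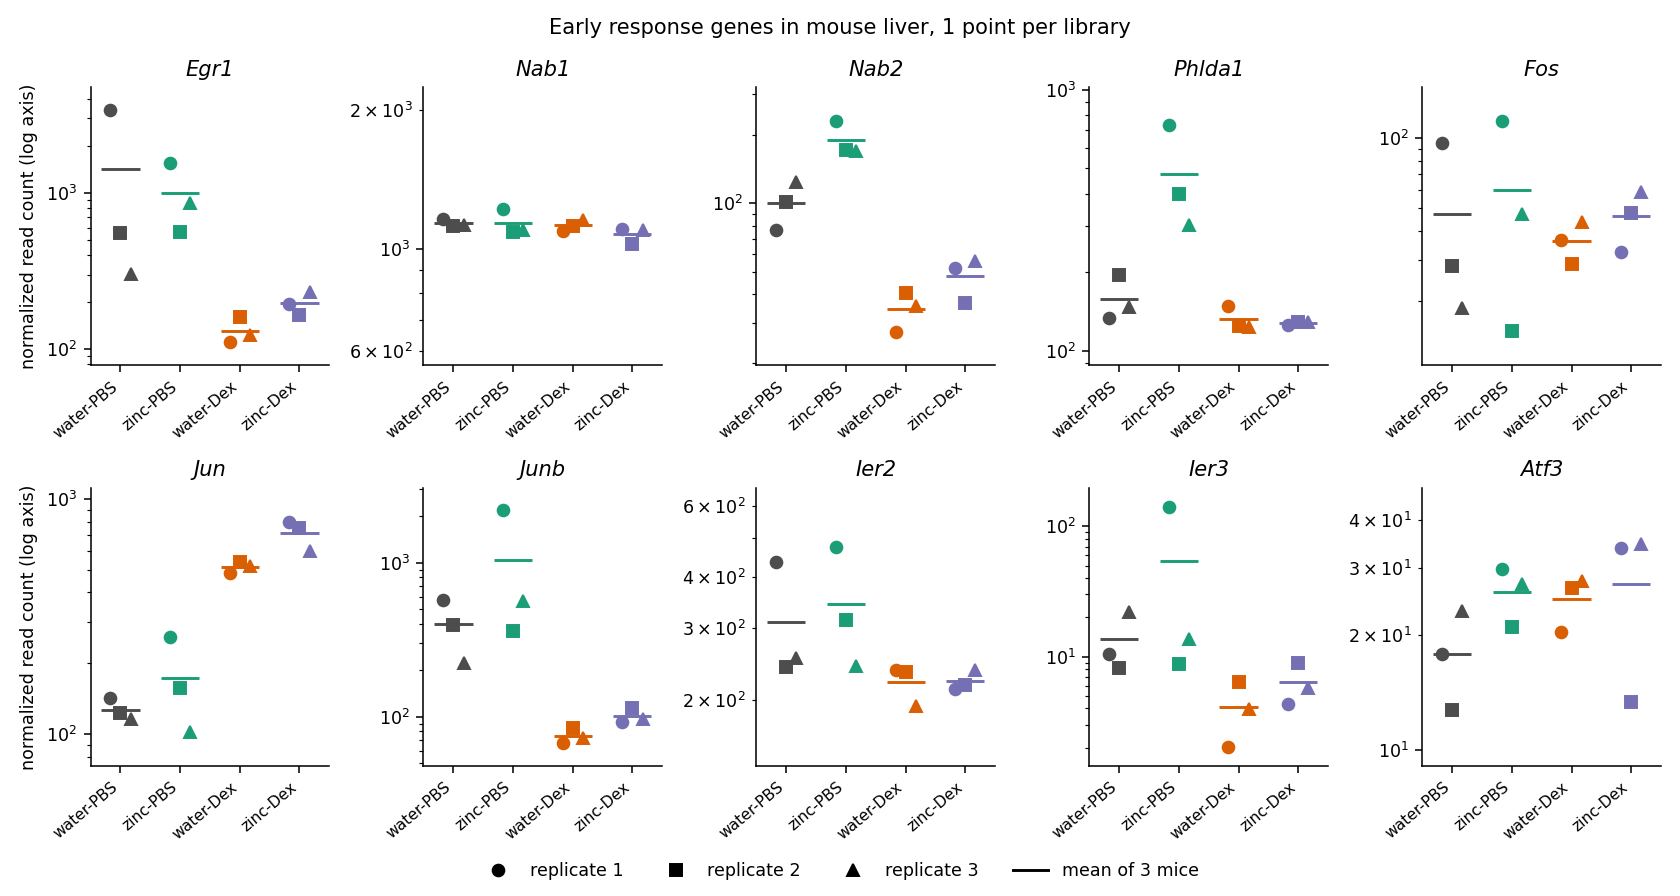
Normalized read counts (log axes with a scale of their own in each panel) of the 10 members in every library, by group. Points are single mice, shapes are replicate numbers and horizontal lines are means of 3 mice. *Egr1*, *Nab2* and *Junb* sit lower in all 6 Dex-injected mice than in all 6 PBS-injected mice, *Jun* sits higher, and *Nab1* hardly moves.

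The members spanned a wide range of levels. As RPKM, computed from the counts, the library totals and the exon lengths of GENCODE M21, the mean level in water-PBS was 30.3 ± 36.4 (SD, n = 3 mice) for *Egr1*, 27.1 ± 0.490 for *Nab1*, 19.9 ± 6.66 for *Ier2*, 16.7 ± 7.04 for *Junb* and 7.05 ± 1.45 for *Phlda1*. On the same scale, *Jun* was at 3.88 ± 0.340, *Nab2* at 3.36 ± 0.863, *Fos* at 1.95 ± 1.69, *Ier3* at 1.18 ± 0.669 and *Atf3* at 0.815 ± 0.249. Of the 9 pairs of neighbours in this order, 3 were further apart than the sum of their SDs, namely *Nab1* above *Ier2*, *Junb* above *Phlda1* and *Phlda1* above *Jun*. In water-Dex the order was different. *Nab1* led at 23.4 ± 0.808, followed by *Jun* at 13.8 ± 0.652, *Ier2* at 12.4 ± 1.3, *Phlda1* at 5.13 ± 0.578, *Junb* at 2.76 ± 0.294 and *Egr1* at 2.5 ± 0.477, and 5 of 9 neighbouring pairs were apart by that measure. *Jun* and *Ier2* were not, nor were *Junb* and *Egr1*.

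The spread between mice also differed between genes. The SD of *Nab1* was 2.09% to 6.50% of the mean of its group. That of *Egr1* was 121% in water-PBS, 51.5% in zinc-PBS, 20.2% in water-Dex and 16.8% in zinc-Dex. *Fos* had an SD of 88.3% and 88.1% of the mean in the PBS-injected groups and of 20.4% and 28.2% in the Dex-injected groups. The SD of *Junb* was 43.8% and 96.1% of the mean with PBS and 11.7% and 10.9% with Dex. The differences in spread were not tested.

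Dex without zinc lowered 3 members and raised 1. *Egr1*, *Nab2* and *Junb* fell and *Jun* rose, and the other 6 did not pass the test. Calls needed an adjusted p below 0.05 over all genes in DESeq2 together with a log2 fold change past 0.8 in either direction, and 4.79% of 14221 tested genes were called lower and 4.89% higher between water-Dex and water-PBS. The median log2 fold change of the 10 members was -0.44, and that of all tested genes was -0.01.

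*Egr1* (ENSMUSG00000038418, chromosome 18, 34859823 to 34864984 on the plus strand, mm10) was at 3379, 551 and 302 normalized counts in water-PBS replicates 1 to 3 and at 111, 162 and 123 in water-Dex. The Dex-injected mice were all below the controls, and 1 control mouse was far above the other 2. *Egr1* was 10.7-fold lower in water-Dex (log2 fold change -3.42, SE 0.790, DESeq2 adjusted p 0.000168). Without water-PBS replicate 1 the log2 fold change was -1.70 (DESeq2 adjusted p 0.00169), so the call stood and the size was smaller.

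*Nab2* (ENSMUSG00000025402, chromosome 10, 127660918 to 127668568, minus strand) was at 76.7, 101 and 124 normalized counts in water-PBS and at 27.4, 40.4 and 35.6 in water-Dex. No overlap was seen. The difference was 2.92-fold (log2 -1.55, SE 0.256, DESeq2 adjusted p 3.4e-08). Exons of *Nab2* overlap those of *Stat6* and *Nemp1* on the opposite strand, and the strand setting of the counting is not given in the sources used here, so its level is uncertain. *Stat6* differed by -0.35 and *Nemp1* by -0.69 on the log2 scale in the same comparison (DESeq2 adjusted p 0.00687 and 0.0312).

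*Nab1* (ENSMUSG00000002881, chromosome 1, 52457294 to 52500679, minus strand), the other corepressor gene and the one whose window held the EGR sites, was at 1161, 1117 and 1126 normalized counts in water-PBS and at 1093, 1122 and 1156 in water-Dex. The groups overlapped. Its log2 fold change was -0.01 with a 95% interval from -0.16 to 0.14 (DESeq2 adjusted p 0.936).

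Of the AP-1 genes, *Junb* (ENSMUSG00000052837, chromosome 8, 84974484 to 84978718, minus strand) was at 570, 395 and 223 normalized counts in water-PBS and at 67.0, 84.0 and 72.2 in water-Dex. Every Dex-injected mouse was below every control mouse. *Junb* fell 5.32-fold (log2 -2.41, SE 0.627, DESeq2 adjusted p 0.00112). Without water-PBS replicate 1 its log2 fold change was -2.05 (DESeq2 adjusted p 0.0226). An exon of the peroxiredoxin gene *Prdx2* overlaps *Junb* on the opposite strand, and *Prdx2* was at 859 to 912 normalized counts in water-PBS and at 914 to 951 in water-Dex. Without a stated strand setting, the level of *Junb* is uncertain as well.

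*Jun* (ENSMUSG00000052684, chromosome 4, 95049034 to 95052222, minus strand, a gene of 1 exon) was at 142, 123 and 115 normalized counts in water-PBS and at 485, 539 and 519 in water-Dex. It moved against the other called members, with no overlap between the groups. *Jun* rose 4.06-fold (log2 2.02, SE 0.236, DESeq2 adjusted p 4.8e-16). The opposite-strand gene *Junos* had at most 6 counts in any library.

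*Fos* (ENSMUSG00000021250, chromosome 12, 85473890 to 85477273, plus strand) was at 95.6, 28.2 and 18.7 normalized counts in water-PBS and at 36.5, 28.7 and 43.5 in water-Dex. The groups overlapped and the 95% interval of its log2 fold change ran from -1.90 to 1.12. *Atf3* (ENSMUSG00000026628, chromosome 1, 191170296 to 191218039, minus strand) was at 17.9, 12.7 and 23.1 normalized counts in water-PBS and at 20.3, 26.6 and 27.7 in water-Dex. These groups overlapped as well, and the interval for *Atf3* was -0.29 to 1.26.

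*Ier2* (ENSMUSG00000053560, chromosome 8, 84661331 to 84662852, minus strand, 1 exon) was at 437, 241 and 254 normalized counts in water-PBS and at 238, 234 and 193 in water-Dex. The groups did not overlap, but the difference did not pass the threshold (log2 -0.49, SE 0.245, DESeq2 adjusted p 0.155). *Ier3* (ENSMUSG00000003541, chromosome 17, 35821684 to 35822923, plus strand) was at 10.5, 8.19 and 22.0 normalized counts in water-PBS and at 2.03, 6.38 and 3.96 in water-Dex. The groups did not overlap and the log2 fold change of -1.72 had an interval from -3.81 to 0.38. *Phlda1* (ENSMUSG00000020205, chromosome 10, 111506286 to 111508645, plus strand) was at 133, 196 and 147 normalized counts in water-PBS and at 149, 124 and 124 in water-Dex. The groups overlapped (log2 -0.26, SE 0.265, DESeq2 adjusted p 0.559).

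In bulk liver, fewer cells of a type and less RNA per cell cannot be told apart. The 6 lymphocyte markers, all with a mean under 10 normalized counts, summed to 39.5 to 45.2 in water-PBS and to 13.2 to 17.8 in water-Dex. The hepatocyte genes *Tat* and *Cyp3a11* were called higher among 7 markers. The 6 neutrophil markers summed to 48.3 to 60.9 normalized counts in water-PBS and to 41.5 to 63.3 in water-Dex, and the 6 Kupffer cell and macrophage markers to 3615 to 4623 and to 3753 to 4547. Of the 12 early NF-κB genes, 10 were tested, and DESeq2 called 5 lower (*Ccl2*, *Cxcl10*, *Icam1*, *Il1b* and *Socs3*) and 1 higher, the inhibitor gene *Nfkbia*, with a median log2 fold change of -2.20. The part of these cells and genes in the members' differences was not tested.

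Dex in zinc-treated mice, a comparison that shares no library with the preceding one, lowered 5 members and raised *Jun*. *Egr1*, *Nab2*, *Junb*, *Phlda1* and *Ier3* were called lower in zinc-Dex than in zinc-PBS, against 4.68% of 15657 tested genes called lower and 5.0% called higher. The median log2 fold change of the members was -1.26, and that of all tested genes was -0.01. Zinc-PBS replicate 1, where all 10 members were highest of their group, counts toward the members' median. The 6 lymphocyte markers summed to 31.5 to 54.2 normalized counts in zinc-PBS and to 23.3 to 29.3 in zinc-Dex, and the 6 neutrophil markers to 42.0 to 147 and to 36.7 to 76.0. Of the 12 early NF-κB genes, DESeq2 called 8 lower and 0 higher, with a median log2 fold change of -3.69. Within zinc-PBS, all 12 were highest in replicate 1. The part of these genes and cells in the members' differences was not tested.

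*Nab2* was at 230, 171 and 169 normalized counts in zinc-PBS and at 52.1, 36.7 and 55.7 in zinc-Dex. The groups were far apart, with a log2 fold change of -1.98 (SE 0.237, DESeq2 adjusted p 3.7e-15). *Junb* was at 2177, 362 and 566 normalized counts in zinc-PBS and at 92.3, 113 and 97.1 in zinc-Dex. Every zinc-Dex mouse was below every zinc-PBS mouse (log2 -3.36, SE 0.624, DESeq2 adjusted p 1.3e-06). Without zinc-PBS replicate 1 the log2 fold change of *Junb* was -2.20 (DESeq2 adjusted p 1.7e-11).

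*Jun* was at 257, 156 and 102 normalized counts in zinc-PBS and at 794, 750 and 599 in zinc-Dex. Every zinc-Dex mouse was above every zinc-PBS mouse, and *Jun* rose 4.15-fold (log2 2.05, SE 0.231, DESeq2 adjusted p 3.3e-17). Its calls with Dex held in all 18 alternative fits in each of the 3 comparisons of a Dex group with a PBS group.

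*Phlda1* was at 729, 398 and 303 normalized counts in zinc-PBS and at 126, 129 and 130 in zinc-Dex. The zinc-Dex mice were close together and all were below the zinc-PBS mice (log2 -1.89, SE 0.260, DESeq2 adjusted p 1.0e-11). Without zinc-PBS replicate 1 the log2 fold change of *Phlda1* was -1.45 (DESeq2 adjusted p 4.2e-12). *Egr1* was at 1554, 561 and 855 normalized counts in zinc-PBS and at 193, 167 and 233 in zinc-Dex. Its groups did not overlap, and its log2 fold change was -2.33 (SE 0.789, DESeq2 adjusted p 0.0200). This call of *Egr1* held in 13 of 18 alternative fits. It was lost without zinc-PBS replicate 1 (log2 -1.84, DESeq2 adjusted p 0.142) or 3 (DESeq2 adjusted p 0.0551) and without zinc-Dex replicate 1, 2 or 3 (DESeq2 adjusted p 0.0750, 0.0887 and 0.0508).

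*Ier3* was at 141, 8.74 and 13.6 normalized counts in zinc-PBS and at 4.34, 8.89 and 5.77 in zinc-Dex. The groups overlapped, and a single library was high. Its log2 fold change was -3.10 (SE 1.02, DESeq2 adjusted p 0.0157), and without zinc-PBS replicate 1 it was -0.82 (DESeq2 adjusted p 0.489). *Ier3* also lost its call without zinc-Dex replicate 1 or 3 (DESeq2 adjusted p 0.0761 and 0.0642), with the replicate block (DESeq2 adjusted p 0.0650) and with only the compared libraries in the fit (DESeq2 adjusted p 0.0649).

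*Ier2* was at 474, 315 and 242 normalized counts in zinc-PBS and at 213, 218 and 237 in zinc-Dex. The groups did not overlap, and the difference missed the threshold (log2 -0.62, SE 0.244, DESeq2 adjusted p 0.0522). Without zinc-PBS replicate 3 it passed (log2 -0.82, DESeq2 adjusted p 0.0071). *Nab1* was at 1219, 1087 and 1096 normalized counts in zinc-PBS and at 1104, 1025 and 1095 in zinc-Dex, with a 95% interval of the log2 fold change from -0.23 to 0.07. *Fos* was at 118, 14.9 and 47.1 in zinc-PBS and at 32.6, 47.8 and 58.6 in zinc-Dex, and *Atf3* at 29.8, 21 and 27.2 and at 33.7, 13.3 and 34.6. All of these groups overlapped.

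**Figure D2:**
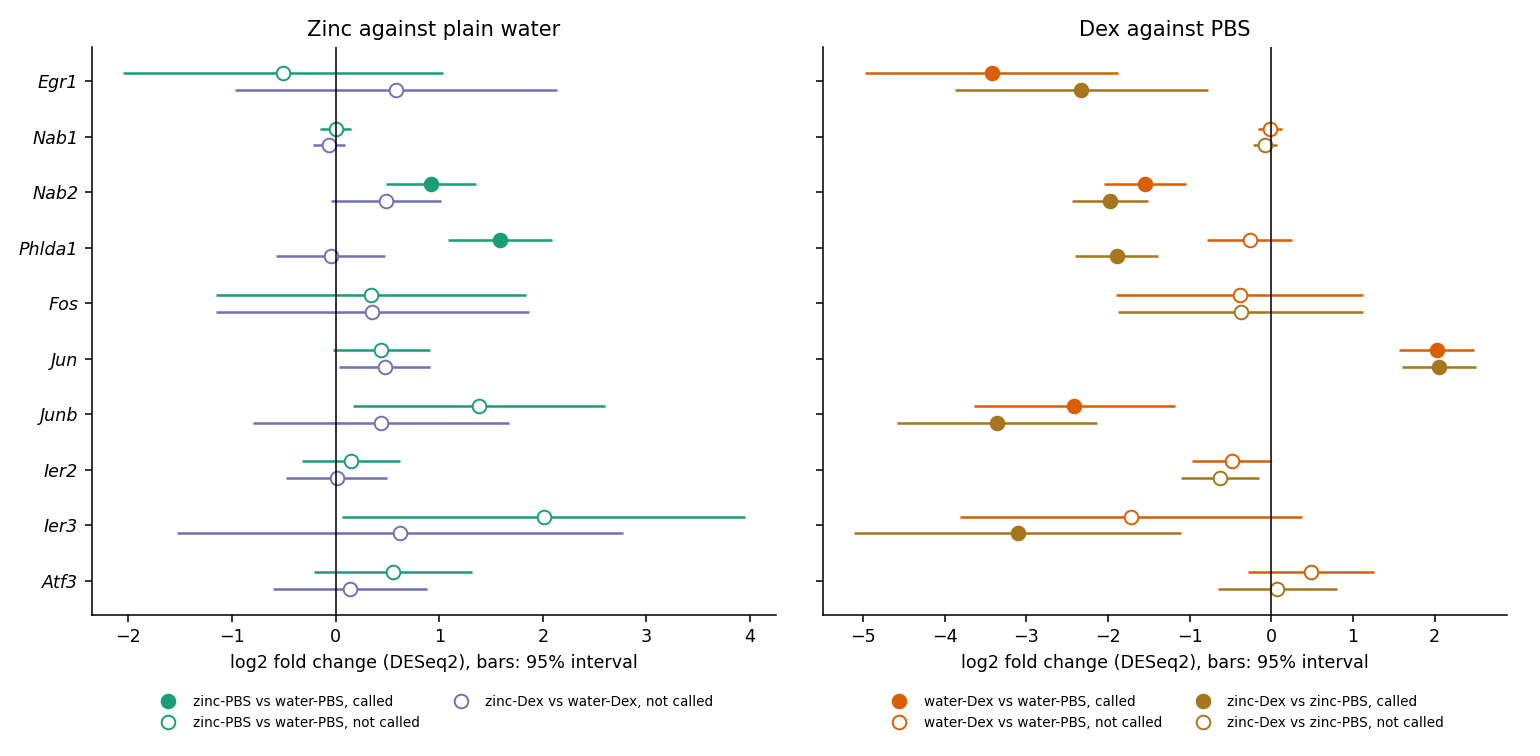
Log2 fold changes (horizontal axis) of the 10 members from the DESeq2 fit, for zinc against plain water (left) and Dex against PBS (right). Points are estimates, filled where called, and bars are 95% intervals. *Jun* lies near 2.02 and 2.05 in the Dex comparisons, and *Phlda1* is near 1.58 for zinc with PBS and near -0.05 for zinc with Dex.

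Set against the plain-water control, zinc-Dex changed *Egr1*, *Nab2*, *Junb* and *Jun*, a comparison in which 5.63% of 14221 tested genes were called lower and 5.59% higher. It shares the water-PBS libraries with the water-Dex comparison. The log2 fold change was -2.84 for *Egr1*, -1.06 for *Nab2*, -1.97 for *Junb* and 2.5 for *Jun* (DESeq2 adjusted p 0.00243, 0.000169, 0.00946 and 1.8e-24). Without water-PBS replicate 1, *Egr1* was at -1.11 (DESeq2 adjusted p 0.0633) and *Junb* at -1.62 (DESeq2 adjusted p 0.0917), neither called. *Junb* was also not called without zinc-Dex replicate 1 (DESeq2 adjusted p 0.0516). The median of the members was -0.39 and that of all tested genes -0.01.

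Zinc without Dex raised *Phlda1* and *Nab2*. The other 8 members did not pass the test between zinc-PBS and water-PBS, where 0.0813% of 12307 tested genes were called higher and 0.0569% lower. The members were chosen with earlier results of these data known, so their share of calls carries no weight beside these percentages. The members' median log2 fold change was 0.50 and that of all tested genes 0.00. That median included zinc-PBS replicate 1, where all 10 members were highest of their group. Without that library the log2 fold change was -0.995 for *Egr1*, -0.62 for *Fos*, -0.27 for *Ier3*, -0.16 for *Ier2* and -0.055 for *Nab1*. It was 0.03 for *Jun*, 0.23 for *Junb*, 0.44 for *Atf3*, 0.76 for *Nab2* and 1.14 for *Phlda1*.

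*Phlda1*, at 133, 196 and 147 normalized counts in water-PBS, was at 729, 398 and 303 in zinc-PBS. Each zinc-PBS mouse was above each control mouse, and replicate 1 was the highest. *Phlda1* was 3.00-fold higher (log2 1.58, SE 0.257, DESeq2 adjusted p 1.3e-06). It was called in all 18 alternative fits, among them edgeR (log2 1.58, edgeR adjusted p 0.0306) and the fit without zinc-PBS replicate 1 (log2 1.14, DESeq2 adjusted p 7.3e-06). The opposite-strand gene *Gm28592*, which overlaps *Phlda1*, had 0 counts in all libraries.

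*Nab2*, at 76.7, 101 and 124 normalized counts in water-PBS, was at 230, 171 and 169 in zinc-PBS. The groups did not overlap, and the difference was 1.89-fold (log2 0.92, SE 0.219, DESeq2 adjusted p 0.0130). The call of *Nab2* was lost in 4 of 18 alternative fits, namely edgeR (adjusted p 0.149) and DESeq2 without water-PBS replicate 1 (adjusted p 0.173), without water-PBS replicate 2 (adjusted p 0.112) or without zinc-PBS replicate 1 (log2 0.76, adjusted p 0.284). *Stat6*, which overlaps it, was at 589 to 655 normalized counts in water-PBS and at 617 to 664 in zinc-PBS.

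*Egr1* was not called here. Its values of 1554, 561 and 855 in zinc-PBS lay within the 302 to 3379 of the control mice (log2 -0.51, 95% interval -2.05 to 1.03). Without water-PBS replicate 1 the sign turned to that of *Nab2* (log2 1.21, interval 0.34 to 2.09, DESeq2 adjusted p 0.571, not called). *Junb* had a log2 fold change of 1.39 (interval 0.17 to 2.60, DESeq2 adjusted p 0.731) and *Ier3* of 2.01 (interval 0.07 to 3.95, DESeq2 adjusted p 0.839). Without zinc-PBS replicate 1 the log2 fold change was 0.23 for *Junb* (interval -0.35 to 0.81), -0.27 for *Ier3* (interval -1.53 to 0.99) and 0.03 for *Jun*, which was at 0.44 with it. *Junb* and *Ier3* were highest in that library, at 4.69 and 12.6 times the mean of the other 2 mice. *Fos* there was 3.82 times, *Egr1* 2.20 times, *Phlda1* 2.08 times and *Jun* 1.99 times that mean, against 1.35 times for *Nab2*, 1.24 times for *Atf3* and 1.12 times for *Nab1*. The part of the early NF-κB genes and of the neutrophil markers, which were also highest in that library, in these levels was not tested. Of 9 early NF-κB genes tested between zinc-PBS and water-PBS, DESeq2 called 0 and edgeR called 0, and 8 had an unadjusted DESeq2 p under 0.05.

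**Figure D3:**
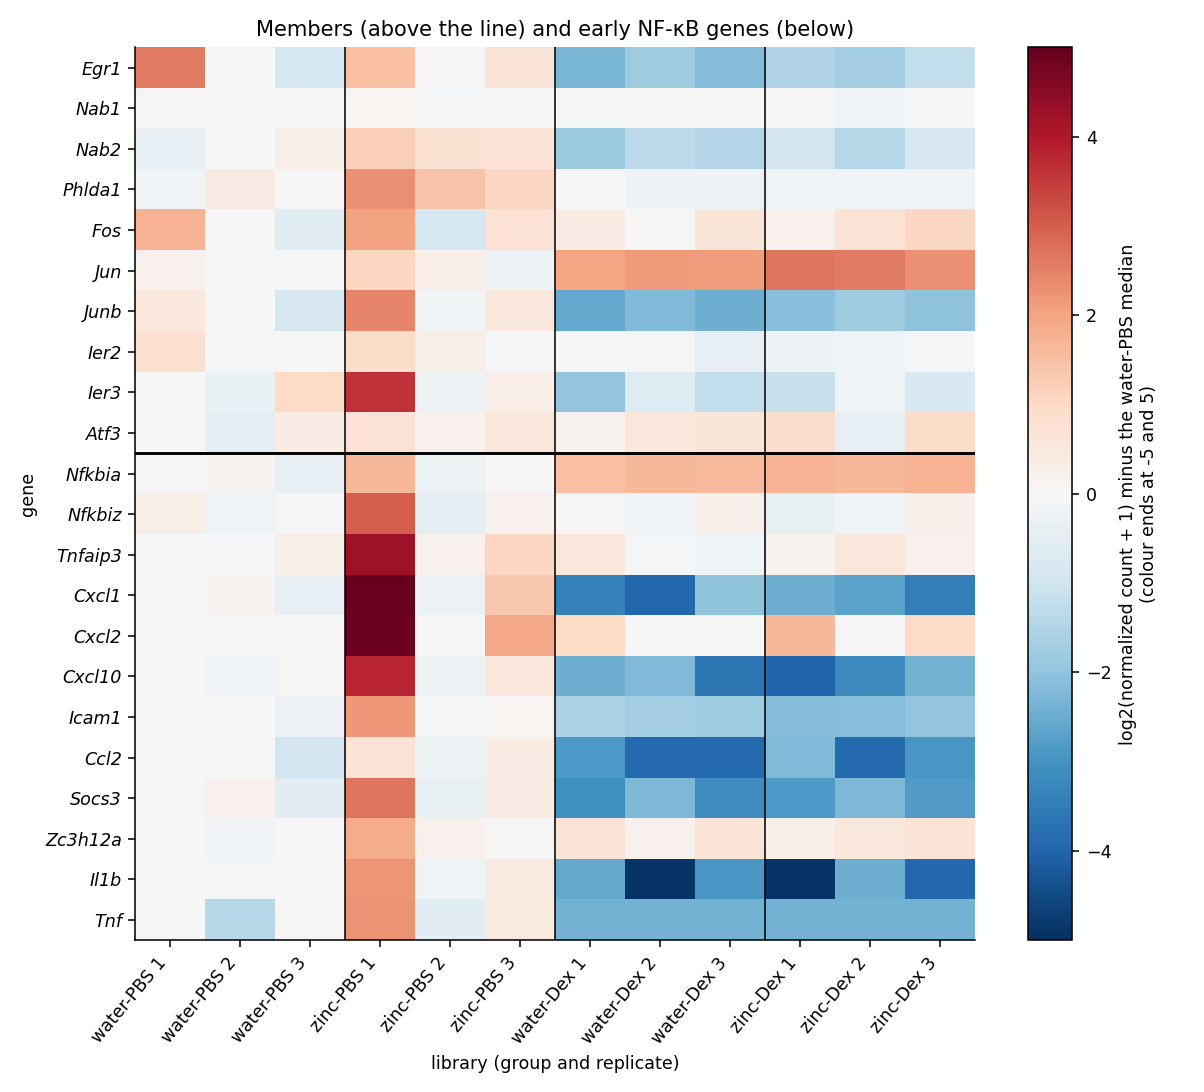
Difference of log2(normalized count + 1) from the median of the water-PBS libraries, for the 10 members (above the line) and 12 early NF-κB genes (below), with 1 column per library. Zinc-PBS replicate 1 is the highest library of its group in all 22 rows, and the *Jun* row is red and the *Junb* row blue in all 6 Dex-injected mice.

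With Dex present, zinc changed no member past the test. DESeq2 called 0 of 10 between zinc-Dex and water-Dex, where 0.305% of 12786 tested genes were called higher and 0.164% lower, edgeR called 0, and 1 member (*Jun*) had an unadjusted DESeq2 p under 0.05. *Jun* was at 485, 539 and 519 normalized counts in water-Dex and at 794, 750 and 599 in zinc-Dex. The groups did not overlap, with a log2 fold change of 0.47 and a 95% interval from 0.03 to 0.92 (DESeq2 adjusted p 0.441). The share of all genes with groups apart is not given here, so separation alone is not read as a result. The groups were also apart for *Egr1* (log2 0.59, interval -0.97 to 2.14) and for *Junb* (log2 0.44, interval -0.80 to 1.68), with zinc-Dex higher and neither called. These intervals rest on a spread shared over all 4 groups, PBS-injected mice included. Without water-PBS replicate 1 the interval of *Egr1* was -0.22 to 1.39. Without zinc-PBS replicate 1 that of *Junb* was -0.13 to 1.01. That of *Jun* was 0.18 to 0.77 in the same fit (DESeq2 adjusted p 0.0911, not called). The *Phlda1* groups, at 124 to 149 and 126 to 130 normalized counts, overlapped (log2 -0.05, interval -0.57 to 0.48). *Nab2* had a log2 fold change of 0.49 (interval -0.04 to 1.02). The median of the members was 0.40 and that of all tested genes 0.00.

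The effect of zinc on *Phlda1* differed with and without Dex. The interaction, which is the zinc effect with Dex minus that without, was -1.63 on the log2 scale for *Phlda1* (SE 0.371, DESeq2 adjusted p 0.0481). It was the only member of 10 called in this test, in which 0.0153% of 26185 tested genes were called lower and 0.00382% higher. That call was close to the threshold and was made in 10 of the 16 alternative fits that gave an adjusted p. It was lost in edgeR (adjusted p 0.551) and in DESeq2 without water-PBS replicate 1 (adjusted p 0.0504), water-Dex replicate 1 or 2 (adjusted p 0.448 and 0.121), or zinc-Dex replicate 1 or 3 (adjusted p 0.225 and 0.138). For *Nab2* the interaction was -0.43 with a 95% interval from -1.12 to 0.25, so a difference in its zinc effect was not detected.

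Among the other early genes, more were called higher than lower with Dex. Of 24 listed, 17 were tested between water-Dex and water-PBS, and 9 were called higher and 3 lower, with a median log2 fold change of 0.86. The highest was *Maff*, a small MAF factor, which was at 65.1, 41.0 and 18.7 normalized counts in water-PBS and at 375, 617 and 467 in water-Dex. Its groups did not overlap (log2 3.55, SE 0.549, DESeq2 adjusted p 2.7e-09). *Ctgf*, a matricellular growth regulator, rose by 2.22 on the log2 scale, *Myc* by 1.95, *Csrnp1* by 1.59, *Klf4* by 1.18, *Zfp36*, which promotes mRNA decay, by 1.16, *Klf2* by 1.01, the AP-1 gene *Fosl2* by 0.90 and *Trib1* by 0.84. *Klf10* fell by 1.71, *Ier5* by 1.31 and *Cyr61* by 1.07. In zinc-treated mice, 7 of 17 were called higher and 2 lower, with a median of 0.68. Those were *Maff* (3.30), *Ctgf* (2.51), *Myc* (1.38), *Klf4* (1.2), *Csrnp1* (1.12), *Klf2* (1.01) and *Fosl2* (0.97) upwards, and *Ier5* (-2.35) and *Klf10* (-1.45) downwards, as log2 fold changes. *Jund*, the remaining *Jun* family gene, was at 148 to 187 normalized counts in water-PBS and at 125 to 189 in water-Dex and was not called. Between zinc-Dex and water-PBS, 10 of 17 were higher and 3 lower, *Btg2* (log2 1.09) being the one not called in water-Dex. For zinc, DESeq2 called 0 of 16 with PBS, where 5 had an unadjusted p under 0.05, and 0 of 16 with Dex, where 2 did, and edgeR called 0 in both.

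*Egr2*, *Egr3* and *Egr4*, the other EGR genes, were at or near the floor. The highest value among them was 6.3 normalized counts, for *Egr2* in water-PBS replicate 1, and *Egr4* had 0 in all 12 libraries.

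**Figure D4:**
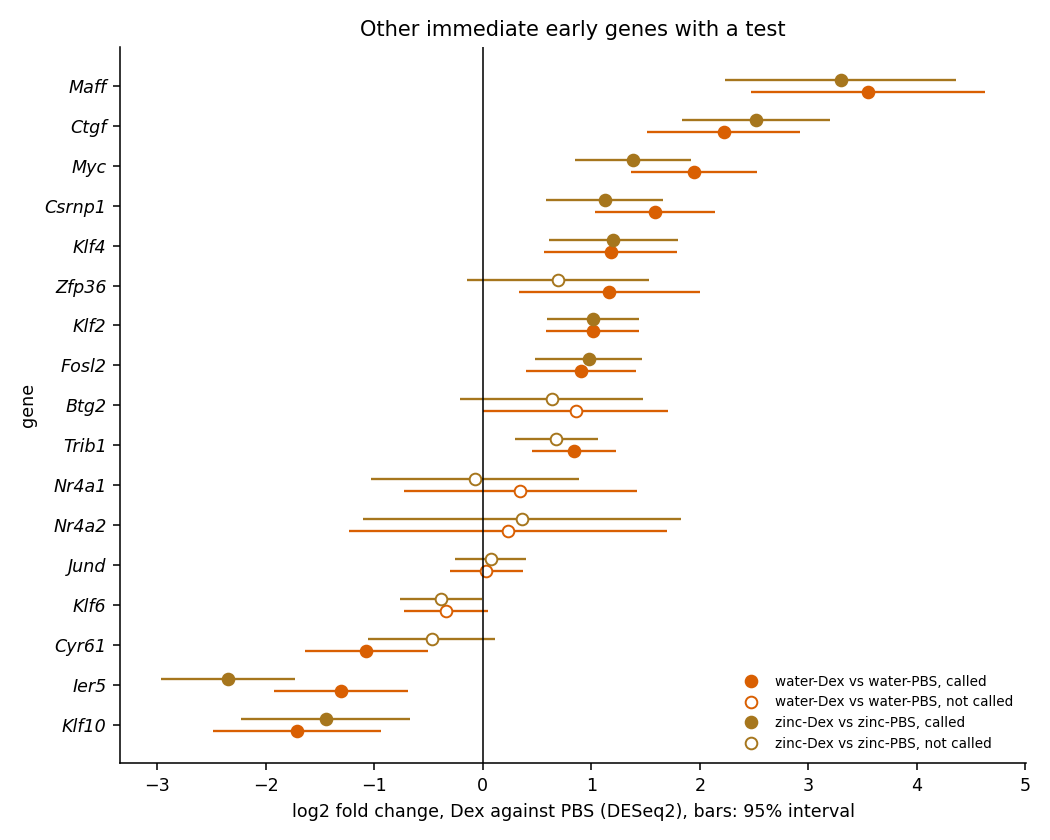
Log2 fold change with Dex (horizontal axis) of the 17 other immediate early genes that were tested, in mice on plain water and on zinc. Points are DESeq2 estimates, filled where called, and bars are 95% intervals. *Maff* is highest at 3.55 and 3.30, and *Ier5* and *Klf10* lie below 0 in both.

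Of 18 genes upstream of the members, Dex raised *Mkl1* and *Mkl2*, coactivators of serum response factor, and lowered *Elk3*, a ternary complex factor, and *Erbb3*, a receptor tyrosine kinase. In plain-water mice the log2 fold changes were 1.03 for *Mkl1*, 1.29 for *Mkl2*, -1.3 for *Elk3* and -1.63 for *Erbb3* (DESeq2 adjusted p 2.1e-09, 2.0e-19, 5.3e-14 and 2.1e-11). The same 4 were called in zinc-treated mice, at 1.09, 1.44, -1.37 and -1.2. Without the fold threshold, 8 of the 18 had a DESeq2 adjusted p under 0.05 in plain-water mice and 7 in zinc-treated mice. *Srf* itself was at 110 to 149 normalized counts in water-PBS and at 113 to 131 in water-Dex. The receptor gene *Egfr* was at 10927, 6399 and 3395 normalized counts in water-PBS and at 4638, 5455 and 3844 in water-Dex. With zinc, 0 of 18 were called with PBS (0 at an unadjusted p under 0.05) and 0 with Dex (1 at that level), and edgeR called 0 in both.

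Among 11 relatives and partners of the members, *Ddit3*, a bZIP factor of the stress response, was called lower with Dex in plain-water mice (log2 -0.86, DESeq2 adjusted p 0.0315) and in zinc-treated mice (log2 -1.0, DESeq2 adjusted p 0.00952). *Phlda3*, a relative of *Phlda1*, was at 6.3, 6.1 and 15.4 normalized counts in zinc-PBS and at 25.0, 21.1 and 28.8 in zinc-Dex. Its groups did not overlap (log2 1.44, SE 0.448, DESeq2 adjusted p 0.00962). *Atf4* was at 929 to 1111 normalized counts in water-PBS and at 931 to 1054 in water-Dex, and was not called.

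The genes whose pattern was most like that of a member were sought among the 9574 genes that averaged 50 or more normalized counts, by Pearson's r of log2(normalized count + 1) over the 12 libraries, which include the group differences. For *Nab2* they were *Gpr146* (r = 0.994), *Amz2* (0.969) and *Rhou* (0.968). *Gpr146*, which encodes an orphan G protein-coupled receptor, had mean normalized counts of 896 in water-PBS, 1423 in zinc-PBS, 417 in water-Dex and 520 in zinc-Dex, and so the same order of groups as *Nab2*, at 101, 190, 34.5 and 48.2. For *Phlda1* they were *Rnd3* (r = 0.916), *Usp28* (0.915) and *Tlr2* (0.883), a pattern recognition receptor with means of 41.0, 144, 16.7 and 17.6 in the same groups. For *Egr1* they were *Enpp4* (r = 0.948), *Glce* (0.940) and *Rac2* (0.929), and for *Fos*, at lower values, *Ikbke* (r = 0.849), *Gnaq* (0.826) and *Macf1* (0.810). These correlations describe the 12 libraries and carry no test.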

How the data were processed

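Liver RNA of 12 mice was sequenced as single-end reads of stranded libraries. Per the study's methods, the authors mapped reads to mm10 with HISAT2 2.0.4 and deposited raw read counts per Ensembl gene from featureCounts, with no normalization. The annotation release is not given in the sources used here. Symbols and coordinates came from GENCODE M21 (GRCm38) for 54809 of 54838 identifiers. Total counts were 9091152 to 12303527 per library. No source ties replicates to litters or batches, and replicates of a group differed 6.20 to 20.7 times more than counting alone gives (chi-square per degree of freedom), so none was a copy.

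Groups were compared by the Wald test of DESeq2 1.42.0 (R 4.3.3), the tool named in the study's methods, with all 12 libraries and all genes in 1 model that had a mean for each group. Log2 fold changes were not shrunken and the default filters were kept. A call required a p-value below 0.05 after Benjamini-Hochberg adjustment over all genes and a log2 fold change beyond 0.8 in either direction. With 3 mice per group, p-values rest on a spread shared over groups and genes. The script was tested on simulated data. Alternatives were edgeR 4.0.16, TMM factors, a filter of 10 counts in 3 libraries, no independent or Cook's filter, no fold threshold, the replicate number as a block, only the compared libraries, and leaving out each library. Normalized counts are counts divided by DESeq2 size factors. Statements on whether groups overlap describe the values of these mice, and the share of all genes without overlap is not given.

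The members and all lists were chosen with earlier results of these data known. Counts of genes called from them, set beside the shares of all genes, are therefore not tests of enrichment. The text names all members, called genes of the lists, the treatment markers, opposite-strand neighbours, and the 3 genes most alike to *Egr1*, *Fos*, *Nab2* and *Phlda1*. Other list genes given by level (*Srf*, *Egfr*, *Jund*, *Atf4*, *Egr2*, *Egr4*, *Cxcl1*), and the *Jun* and *Junb* windows, were chosen after their values were seen. Figures used matplotlib 3.10.9.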

Additional observations from a re-analysis of the deposited data

Results flagged for a closer look

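The effect of zinc on *Phlda1* differed between Dex-injected and PBS-injected mice by the interaction test. The difference was -1.63 on the log2 scale (SE 0.371, DESeq2 adjusted p 0.0481). *Phlda1* was higher in zinc-PBS than in water-PBS in each of 3 mice, at 729, 398 and 303 against 133, 196 and 147 normalized counts, whereas zinc-Dex and water-Dex overlapped at 126 to 130 and 124 to 149. Zinc-PBS replicate 1, at 729, was also the highest library of its group for all 10 members. Without that library the interaction was -1.18 (DESeq2 adjusted p 0.0216) and was still called. The call held in 10 of 16 alternative fits and was lost in edgeR (adjusted p 0.551) and in DESeq2 without any of 5 libraries (adjusted p 0.0504 to 0.448).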

How the results depend on the processing

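Over 18 alternative fits per comparison of groups and 17 for the interaction, 1069 values of the members were compared, of which 998 kept their direction and their side of the threshold, 23 lost the call, 1 gained it and 47 changed sign, of which 0 were called. DESeq2 gave no adjusted p for 45 values. Those of uncalled members were compared by sign, and that of *Phlda1* in the interaction without water-PBS replicate 3 was left out. The number of members called with zinc (PBS) was 1 in edgeR and 1 to 2 when leaving out a library, that in zinc-Dex against water-PBS 2 to 4 when leaving out a library, and that of the interaction 0 in edgeR and 0 to 1 when leaving out a library. The cause was not tested. Replicate numbers did not pair the mice: deviations of same-numbered mice correlated at -0.20 to 0.19 and no pair of groups was above 0.1 throughout. With the replicate block, *Ier3* lost its call with Dex in zinc-treated mice (adjusted p 0.0650), and the uncalled log2 fold change of *Fos* turned to 0.32 in zinc-Dex against water-PBS and to 0.048 in zinc-Dex against zinc-PBS. With only the compared libraries, that of *Nab1* with zinc was 3.0e-05. The ranges that crossed 0 when leaving out a library were, for zinc with PBS, -0.995 to 1.21 (*Egr1*), -0.055 to 0.030 (*Nab1*), -0.62 to 1.35 (*Fos*), -0.16 to 0.47 (*Ier2*) and -0.27 to 2.54 (*Ier3*). For water-Dex against water-PBS they were -0.033 to 0.0068 (*Nab1*) and -0.77 to 0.62 (*Fos*), for zinc-Dex against water-PBS -0.41 to 0.98 (*Fos*), and for zinc-Dex against zinc-PBS -0.83 to 0.59 (*Fos*) and -0.14 to 0.40 (*Atf3*). For zinc with Dex they were -0.095 to 0.047 (*Phlda1*), -0.083 to 0.061 (*Ier2*) and -0.078 to 0.46 (*Atf3*). For the interaction they were -0.63 to 1.58 (*Egr1*), -0.997 to 0.97 (*Fos*), -0.23 to 0.44 (*Jun*), -1.35 to 0.21 (*Junb*), -0.47 to 0.17 (*Ier2*) and -1.92 to 0.89 (*Ier3*). *Ier3* and *Fos*, at low counts, and *Egr1*, at higher counts, had the widest intervals. Smaller differences in them were not detectable with 3 mice per group and this spread between mice.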
